A study of Sinibotia superciliaris with 2 samples.

Results

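Genes of the muscle contractile apparatus, together with other myosins, were compared between black and yellow skin of the loach Sinibotia superciliaris, named Botia superciliaris in the labels, whose skin carries stripes. The members were the unigenes (the gene identifiers of the files) whose closest database protein carried 1 of 14 words in its description, among them myosin, troponin, titin, actinin, ryanodine and muscle. The words matched 160 unigenes. Of these, 11 belonged to gene names that the selection leaves out, and the remaining 149, of 124650 unigenes in all, were summed by protein name into 55 genes, of 4058 annotated genes. Members differed in how many unigenes they held, from 1 to 14, and 23 genes were a single unigene. Gene names are entry names of the best Swiss-Prot match. Such a match leaves orthology undetermined, and near-identical copies cannot be separated.

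The fish were wild adults from a river watershed, weighing 6.25 ± 0.30 g and measuring 8.75 ± 0.20 cm, with ± undefined in the labels. Black skin and yellow skin were sampled from 6 individuals with no treatment named, frozen in liquid nitrogen, and sequenced as 1 RNA library per colour. The labels do not say whether the RNA of the 6 fish was pooled, or how deep below the skin the tissue was cut. With 1 library per colour there is no replicate check, and every difference below is between these libraries, with no test across fish. Depth was 35386871 reads for black skin and 38323075 reads for yellow skin. Levels are in RPM, reads per 1000000 reads of the library, and are not corrected for gene length, so levels are compared between the libraries and not between genes.

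In striated muscle, thick filaments of myosin pull on thin filaments of actin, and the repeating unit between neighbouring Z-discs is the sarcomere. Titin is a giant protein that spans much of this unit, and alpha-actinin anchors the thin filaments at the Z-disc. Contraction starts when ryanodine receptors release calcium from the sarcoplasmic reticulum, and calcium pumps then return it. Non-muscle myosin II and the unconventional myosins use the same motor domain to shape cells and move cargo in most cell types, skin cells included.

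The word rule drew in more than muscle. By the lists of protein names used here, 24 of the 55 genes belonged to the sarcomere and its calcium store, 20 were smooth or non-muscle myosin II genes with their regulators or unconventional myosins, and 11 fell in neither group. The motor domain was the most frequent leading protein domain, listed for 28 of the 149 unigenes, ahead of the immunoglobulin domain (I-set) of titin-like proteins with 25. The words troponin, parvalbumin, myomesin and sarcomer matched no member unigene, so the calcium switch of the thin filament, the soluble calcium buffer of fish muscle and the M-line crosslinker were not analysed here. For 119 of the 149 unigenes the closest match was a zebrafish (Danio rerio) protein. The predicted reading frames had a median of 348 codons and a range of 99 to 2646, so most members of the giant proteins were pieces.

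The sarcomere genes chosen here sat lower in the black library, relative to the yellow one, than most annotated genes did. The selection shaped this, since the sarcomere names it leaves out, MLRV, MYL4, AT2A1 and ACTS, were all on the black side (below). Genes were kept at a mean level of 1 RPM or more, which 50 of the 55 met, of which 22 were sarcomere genes. The remaining 5 included MYH6, OBSL1, MYO15 and MYRIP, of which OBSL1 had 8 black and 17 yellow reads. Log2 ratios were taken as black minus yellow log2(RPM + 1), a scale that understates differences of low genes. Their median was -0.10 over the 22 sarcomere genes, 0.10 over 18 smooth, non-muscle and unconventional myosin genes, and 0.21 over all 3644 annotated genes past the same minimum. Of the 22 sarcomere genes, 16 (72.7%) were lower in the black library, against 19.7% of annotated genes, and with TMM scaling 17 (77.3%) against 44.1%. The count depended on how unigenes were joined, and was 12 with each gene's most abundant unigene alone. Of 60 sarcomere unigenes taken singly, 33 (55%) were lower in the black library, against 31.6% of all unigenes. Of the 18 other myosin genes, 6 (33.3%) were, and with TMM scaling 10 (55.6%). These 18 joined unlike classes. Of 7 smooth and non-muscle myosin II genes 4 (57.1%) were lower, and 6 (85.7%) with TMM scaling. Of 11 unconventional myosins 2 (18.2%) were, and 4 (36.4%) with TMM scaling. TMM, a scaling by a trimmed mean of gene ratios, lowered the log2 ratios by 0.19 and moved the 3 medians to -0.28, -0.09 and 0.03, so that the other myosins turned negative while their order stayed. ACTN1, ACTN4, TPM4, AT2A2 and AT2A3 are forms also expressed outside striated muscle. With these left out, a choice made after seeing the values, 15 of 17 sarcomere genes (88.2%) were lower in black skin, with a median of -0.14. Of the forms left out only AT2A2 was on the yellow side, so this share had to rise. ACTA, the actin of vascular smooth muscle, stayed in and was lower in black skin, with an interval that includes 1. The actin ACT2, whose closest match is a cardiac muscle actin, was not counted as a sarcomere gene. It was higher in black skin, also with an interval that includes 1.

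**Figure D1:**
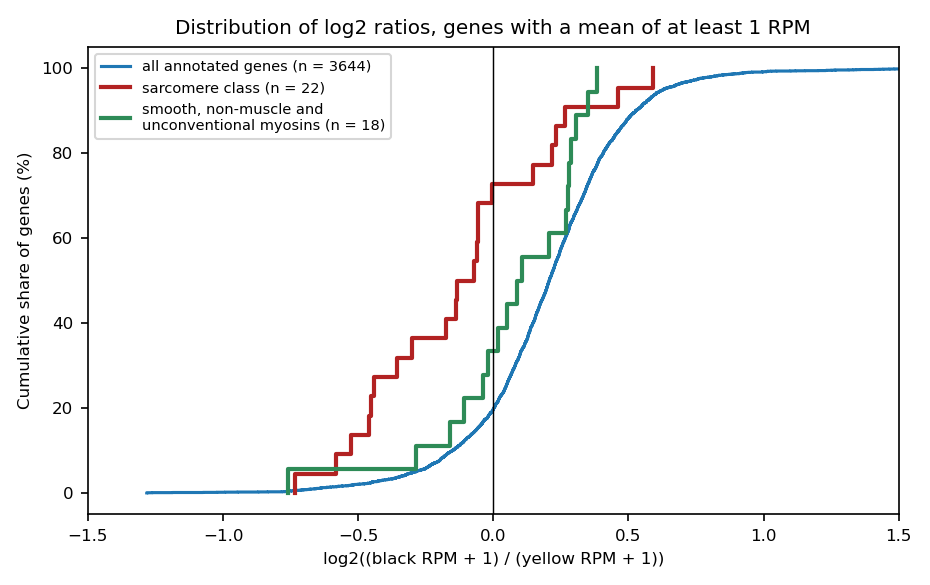
Cumulative share of genes (y axis, percent) at or below each log2 ratio of black over yellow RPM + 1 (x axis), for all 3644 annotated genes, the 22 sarcomere genes and the 18 smooth, non-muscle and unconventional myosin genes with a mean of at least 1 RPM; annotated genes beyond the right end of the axis are not drawn. The sarcomere line lies to the left, with 72.7% of its genes below 0 against 19.7% of annotated genes (77.3% against 44.1% with TMM scaling, not drawn). With each gene's most abundant unigene alone, 12 sarcomere genes were below 0 (not drawn). The sarcomere line lacks MLRV, MYL4, AT2A1 and ACTS, sarcomere names that the selection leaves out and that were all on the black side.

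None of the 50 genes differed 2-fold between the colours. Over all annotated genes 0.96% did, 0.823% on the black side and 0.137% on the yellow side, and the count of 0 was shaped by the selection, since names it leaves out include 3 that exceeded 2-fold (MLRV, MYL4 and AT2A1, below). At 1.5-fold, 4 of the 50 genes were called, close to the 8.23% of all annotated genes. Of these 4, MYLK3, MUSK and MYSC were on the yellow side, where 1.43% of annotated genes were called, and AT2A3 was on the black side, where 6.81% were. Scaling by TMM gave 9 calls at 1.5-fold, while a pseudocount of 5, or asking that the whole counting interval pass the fold, left 0. For each gene an approximate 95% interval of the RPM ratio was computed, which covers counting error only and counts each read pair as 1. It lay wholly below 1 for 10 of the 22 sarcomere genes, against 5.71% of annotated genes, and wholly above 1 for 6, against 49.6%. Such interval shares, here and below, depend on read depth and on the scaling, and are given without TMM scaling.

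**Figure D2:**
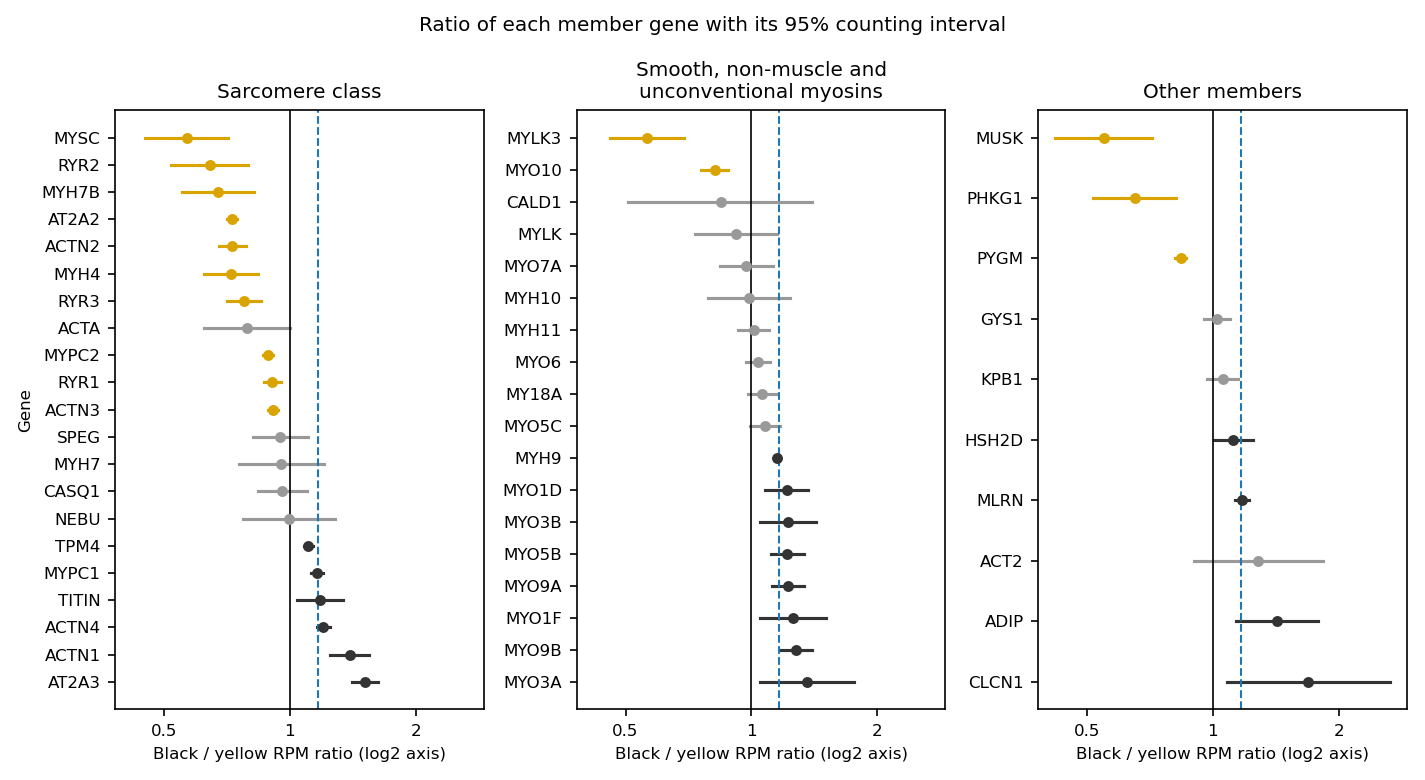
Black over yellow RPM ratio (x axis, log2 scale) of 49 of the 50 member genes with a mean of at least 1 RPM, by group; points are ratios, bars are 95% counting intervals, yellow marks intervals wholly below 1, dark grey wholly above 1 and light grey intervals that include 1. The dashed line is the median ratio of annotated genes, 1.17, and most sarcomere genes lie to its left.

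Among myosin heavy chain names, the motors of the thick filament, 3 were on the yellow side with intervals that leave out 1. MYSC, a match to a cardiac myosin heavy chain of chicken whose closest fish protein is zebrafish myosin-7, was at 6.64 RPM in the black and 11.7 RPM in the yellow library, a yellow-to-black ratio of 1.76 (interval 1.41 to 2.22). MYH7B, a relative of the slow and cardiac heavy chain, was at 9.52 and 14.1 RPM, a ratio of 1.49 (1.22 to 1.81). MYH4, by name a fast skeletal heavy chain, was at 17.2 and 23.7 RPM, a ratio of 1.38 (1.19 to 1.60). Most of the MYH4 level came from c106144_g2, at 13.2 and 19.1 RPM, whose closest fish protein is also zebrafish myosin-7 and which shares its assembly cluster number with the MYSC unigene. The other MYH4 unigene, c96732_g1, was at 3.95 and 4.62 RPM with an interval that includes 1. MYSC and MYH4 therefore may not be separate genes, and a fast fibre type cannot be read from the MYH4 name. MYH7, the slow and cardiac heavy chain, was at 7.80 and 8.16 RPM, a yellow-to-black ratio of 1.05 (0.828 to 1.33). Most of this was c106785_g1, at 7.40 and 6.78 RPM with an interval that includes 1. Its other unigene, c93965_g1, a match to zebrafish slow myosin heavy chain 1, was below the minimum. It had 14 black and 53 yellow reads, a yellow-to-black ratio of 3.50 (1.48 to 9.52). MYH6, by name the atrial heavy chain, was the exception and lay below the minimum, with 46 black and 14 yellow reads, a black over yellow ratio of 3.56 (1.48 to 9.82). Its 3 unigenes had different closest matches. The unigene c112918_g1, with 20 black and 2 yellow reads, matched a mammalian myosin-6-like protein. The unigene c128366_g1, with 13 and 9 reads, matched a zebrafish ventricular heavy chain, and c115817_g1, with 13 and 3 reads, zebrafish cardiac myosin 6.

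Myosin-binding protein C, which wraps the thick filament and tunes crossbridge cycling, gave an uneven picture. The slow form MYPC1 was at 383 RPM in black and 330 RPM in yellow skin, a black over yellow ratio of 1.16 (1.12 to 1.20), level with the median ratio of annotated genes. The fast form MYPC2 summed to 526 and 593 RPM, a yellow-to-black ratio of 1.13 (1.10 to 1.16), but its 3 unigenes went opposite ways. The unigene c105354_g1 was at 392 RPM in black and 239 RPM in yellow skin, a black over yellow ratio of 1.64 (1.58 to 1.70). The unigene c96003_g1 was at 92.2 and 241 RPM, and c96003_g2 at 41.8 and 113 RPM, yellow-to-black ratios of 2.62 (2.47 to 2.77) and 2.70 (2.48 to 2.94). All 3 rested on at least 1481 reads per library. The reading frame of c105354_g1 spanned 1125 codons and those of the other unigenes 690 and 464, and the protein-level match of c96003_g2 was to the cardiac form MYPC3 instead. The direction of the MYPC2 sum therefore depended on how unigenes were joined, with a log2 ratio of -0.17 from the sum, 0.71 from its most abundant unigene and 0.01 when genes were named by the protein-level match.

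**Figure D3:**
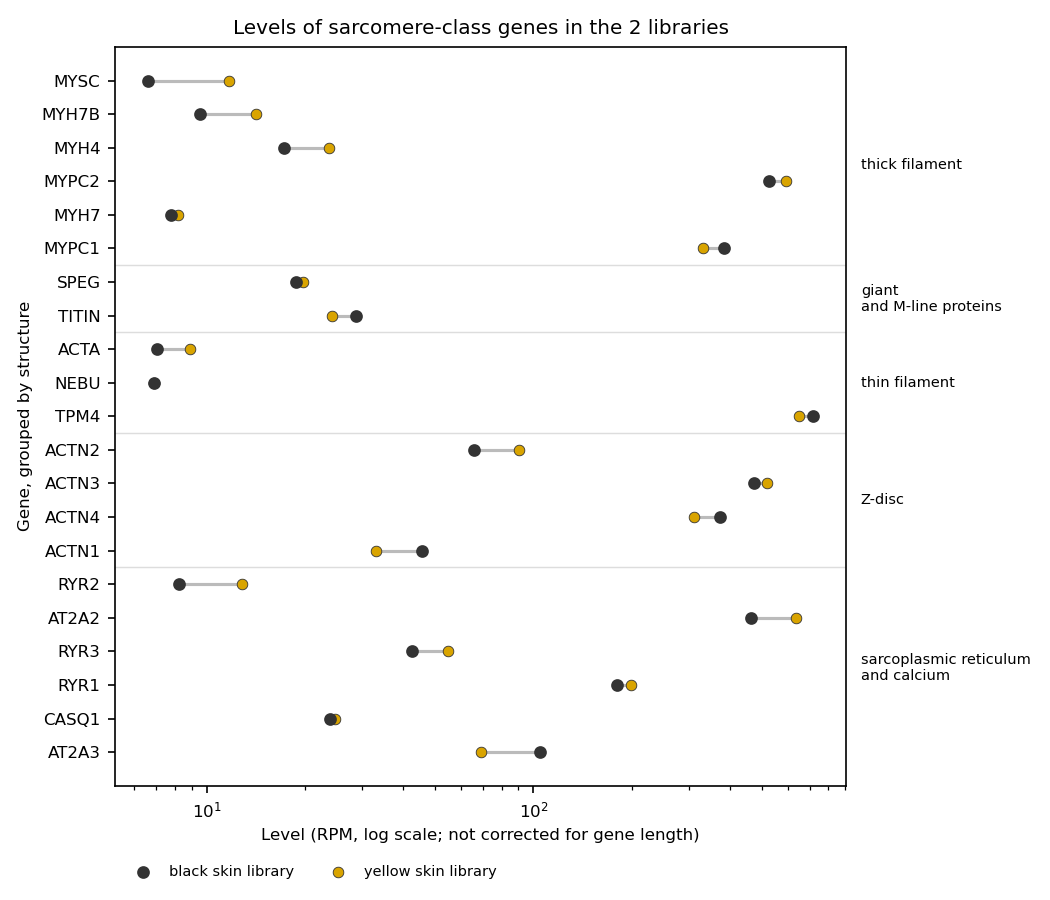
Levels (x axis, RPM on a log scale, not corrected for gene length) of 21 of the 22 sarcomere genes in the black (dark points) and yellow (yellow points) skin libraries, grouped by structure on the y axis; grey lines join the values of a gene. Yellow points lie to the right of dark ones for 15 of the 21 genes drawn, and the points of NEBU overlap at 6.89 and 6.91 RPM.

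Giant proteins of the filament system differed little as sums. TITIN, the molecular spring of the sarcomere, was at 28.7 RPM in black and 24.3 RPM in yellow skin, a black over yellow ratio of 1.18 (1.04 to 1.34). SPEG, a muscle kinase with immunoglobulin domains like those of titin, was at 18.8 and 19.8 RPM, a ratio of 0.949 (0.816 to 1.10). Of the 5 TITIN unigenes past the minimum, 4 had intervals that include 1, as did all 5 of SPEG.

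Thin filament genes were few. TPM4, a tropomyosin also expressed outside muscle whose closest fish protein is a tropomyosin alpha-3 chain, was at 717 RPM in black and 649 RPM in yellow skin, a black over yellow ratio of 1.11 (1.08 to 1.13). Its log2 ratio of 0.15 turned to -0.04 with TMM scaling. NEBU (nebulin), the ruler along thin filaments of skeletal muscle, was at 6.89 and 6.91 RPM. ACTA, the actin of vascular smooth muscle, was at 7.03 and 8.89 RPM, a yellow-to-black ratio of 1.26 (0.998 to 1.61) whose interval includes 1. None of these genes was far from equal levels. The actin ACT2, with a cardiac muscle actin as its closest match, was placed outside this class and is described below.

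The alpha-actinins differed in side. The muscle forms were on the yellow side: ACTN3, of fast fibres, was at 474 RPM in black and 520 RPM in yellow skin, a yellow-to-black ratio of 1.10 (1.07 to 1.13), and ACTN2, of striated muscle Z-discs, was at 65.7 and 90.2 RPM, a ratio of 1.37 (1.27 to 1.48). The forms known from non-muscle cells were on the black side. ACTN4 was at 373 and 310 RPM, a black over yellow ratio of 1.20 (1.16 to 1.25), and ACTN1 at 45.7 and 32.9 RPM, a ratio of 1.39 (1.25 to 1.54). A further ACTN1 unigene outside the word rule, c102773_g1, was at 19.0 and 20.8 RPM with an interval that includes 1, and over both unigenes ACTN1 was at 64.7 and 53.7 RPM, a ratio of 1.20 (1.11 to 1.31). The directions of the 4 alpha-actinins, as chosen by the words, held under the other scalings tried.

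The unigenes of ACTN2 fell into distinct sets. The unigene c104568_g1 was at 33.5 RPM in black and 60.2 RPM in yellow skin, and c108617_g3 at 16.6 and 25.8 RPM, yellow-to-black ratios of 1.80 (1.63 to 1.99) and 1.55 (1.34 to 1.80). The unigene c104692_g6 was instead at 9.72 and 2.43 RPM, and c104692_g2 at 5.88 and 1.85 RPM, black over yellow ratios of 4.01 (2.88 to 5.66) and 3.17 (2.15 to 4.78). A pair of further ACTN2 unigenes lay outside the word rule because their closest match was listed by its short symbol. They went the same way as the ACTN2 unigenes with which they share an assembly cluster number. The ACTN1 unigene c108617_g2 shares its cluster number with c108617_g3 and c108617_g4, but was higher in black skin, at 45.7 and 32.9 RPM. The unigene c104692_g1 was at 5.37 RPM in black and 1.56 RPM in yellow skin (black over yellow ratio 3.43, interval 2.25 to 5.36), and c108617_g4, a match to zebrafish Actn3a, was at 9.55 and 19.0 RPM (yellow-to-black ratio 1.99, interval 1.66 to 2.41).

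**Figure D4:**
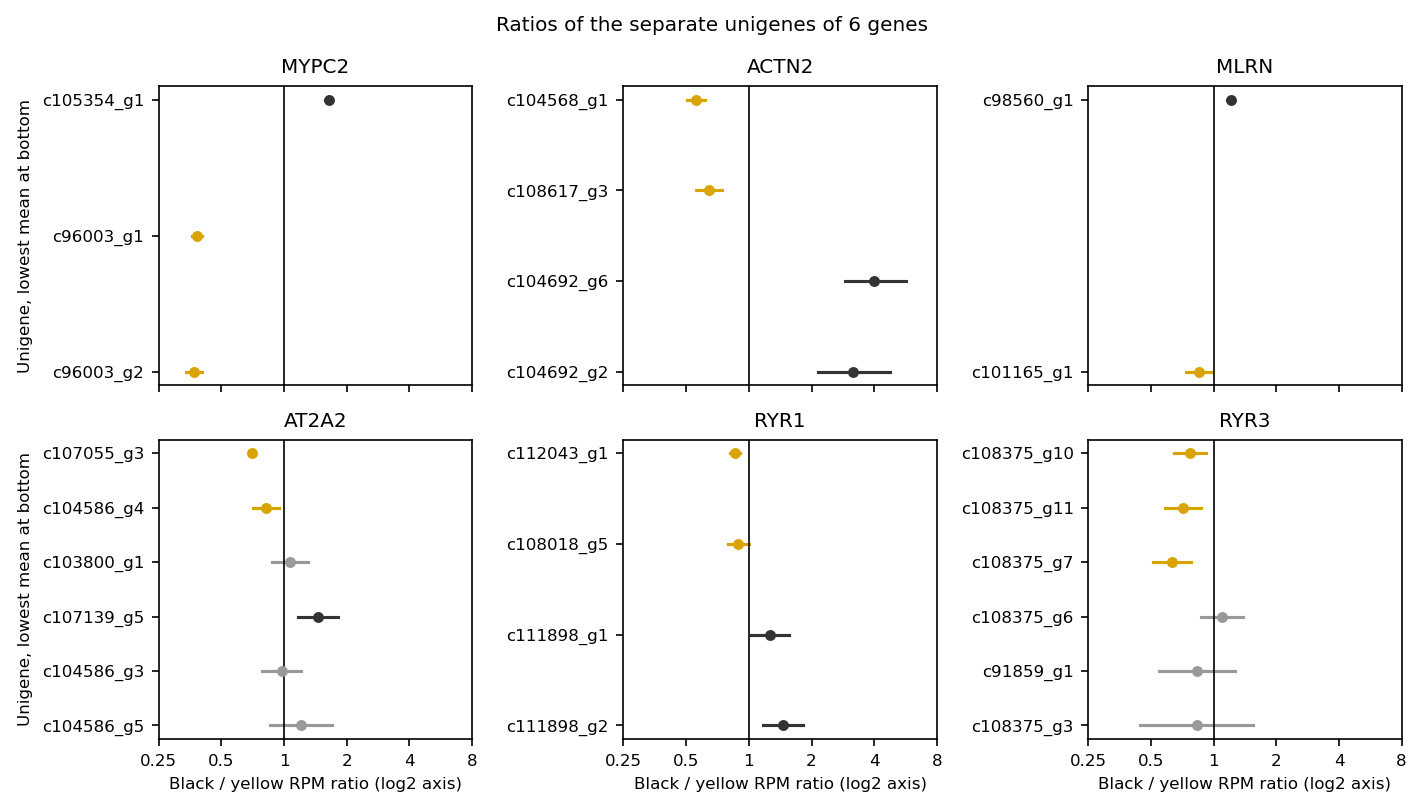
Black over yellow RPM ratio (x axis, log2 scale) of each unigene with a mean of at least 1 RPM in MYPC2, ACTN2, MLRN, AT2A2, RYR1 and RYR3; points are ratios and bars 95% counting intervals, coloured yellow where wholly below 1, dark grey where wholly above 1 and light grey where they include 1. In MYPC2 and ACTN2 no interval includes 1 and unigenes lie on both sides.

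Some genes held opposite unigenes. Of 24 member genes with at least 2 unigenes past the minimum, 7 had intervals wholly below 1 in some unigenes and wholly above 1 in others (29.2%). Over all annotated genes with at least 2 such unigenes, 48 of 750 did (6.4%), with the genes not matched for depth or for number of unigenes. Taken singly, 108 of the 149 unigenes passed the minimum, and 7 of these (6.48%) differed 2-fold, against 1.09% of all unigenes (0.783% black, 0.302% yellow). That count was 2 with a pseudocount of 5 and 4 at a minimum of 5 RPM. At 1.5-fold, 18 did, 7 on the black side and 11 on the yellow side, against 9.19% of all unigenes (6.95% black, 2.25% yellow). Of the 108, 50 (46.3%) were lower in black skin, against 31.6% of all unigenes, with intervals wholly below 1 in 28 and wholly above 1 in 32, against 6.72% and 30.1%. Of the 4 at 2-fold on the black side, the ACTN2 pair is described above. The 3 on the yellow side were the MYPC2 pair and c105963_g2, a unigene of PHKG1. Summing by gene name brought all of them below 2-fold.

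Genes of calcium release and uptake were on the yellow side in 5 of 6 cases (83.3%), also with TMM scaling. Of annotated genes 19.7% were, and 44.1% with TMM scaling. The selection shaped this share, since it leaves out AT2A1, a name of this class on the black side at 39.3 and 15.8 RPM (below). Intervals lay wholly below 1 in 4 of the 6, and the side of RYR2 depended on how unigenes were named. RYR1, the calcium release channel of skeletal muscle, was at 180 RPM in black and 198 RPM in yellow skin, a yellow-to-black ratio of 1.10 (1.05 to 1.16). RYR3, a second release channel, was at 42.5 and 54.7 RPM, a ratio of 1.29 (1.17 to 1.42). Both were lower in black skin, but in RYR1 the more abundant c112043_g1 and c108018_g5 had intervals wholly below 1 and the less abundant c111898_g1 and c111898_g2 wholly above. RYR2, the cardiac channel by name, was at 8.25 and 12.8 RPM, a yellow-to-black ratio of 1.56 (1.26 to 1.92). Most of that level was 1 unigene, c105293_g2, whose protein-level match was RYR3. When genes were named by that match, the log2 ratio of RYR2 turned from -0.58 to 0.28. That naming also moved the RYR1 unigene c111898_g1, at 11.1 and 8.84 RPM, into RYR2. The RYR2 unigenes that kept their name were each below the minimum, so the value of 0.28 mostly reflects c111898_g1. CASQ1, calsequestrin, which stores calcium inside the reticulum, was at 23.8 and 24.8 RPM, a yellow-to-black ratio of 1.04 (0.912 to 1.19).

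The calcium pumps were on opposite sides. AT2A2 (SERCA2), the pump of slow and cardiac muscle that most other cells also use, was at 463 RPM in black and 639 RPM in yellow skin, a yellow-to-black ratio of 1.38 (1.34 to 1.42). Its main unigene, c107055_g3, carried 408 of the 463 RPM in black skin. Of its 6 unigenes, 2 had intervals wholly below 1 and 3 had intervals that include 1. The unigene c107139_g5 was on the black side, at 11.2 and 7.75 RPM, a black over yellow ratio of 1.45 (1.17 to 1.81). The main unigene shares its assembly cluster number with the AT2A3 unigene c107055_g6. AT2A3 (SERCA3), a pump known from epithelial and blood cells, was at 105 and 69.3 RPM, a black over yellow ratio of 1.52 (1.41 to 1.63), the highest log2 ratio of the 50 genes at 0.59. Both AT2A3 unigenes had intervals wholly above 1.

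Smooth and non-muscle myosin II genes sat near equal levels without TMM scaling, apart from a muscle kinase. Of the 7 genes, 4 (57.1%) were lower in black skin, against 19.7% of annotated genes, with a median log2 ratio of -0.02. With TMM scaling 6 (85.7%) were, against 44.1%, with a median of -0.19. A lean to the yellow side was therefore not particular to the sarcomere genes. MYH9, the main non-muscle heavy chain of epithelia and blood cells, was at 2512 RPM in black and 2176 RPM in yellow skin, a ratio of 1.15 (1.14 to 1.17), close to the median of annotated genes, and its unigene c110371_g2 (1956 and 1760 RPM) was the most abundant of all members. MLRN, a match to a regulatory light chain of smooth muscle and, in zebrafish, to light chain 12 forms, which the name lists placed in neither group, was at 312 and 266 RPM, a ratio of 1.17 (1.13 to 1.22). MYH11, the smooth muscle heavy chain, was at 57.8 and 57.1 RPM, and MYH10 at 8.62 and 8.74 RPM. The intervals of MYH10, MYH11, MYLK (smooth muscle light chain kinase), CALD1 (caldesmon) and MY18A all include 1. MY18A, whose closest match is described as unconventional myosin-XVIIIa, held opposite unigenes. The interval of c108362_g3, at 5.06 and 6.91 RPM, lay wholly below 1, and that of c111918_g1, at 59.1 and 52.8 RPM, wholly above. MYLK3, a light chain kinase best known from mammalian and zebrafish heart, was at 8.50 and 15.1 RPM, a yellow-to-black ratio of 1.77 (1.45 to 2.17), the lowest log2 ratio of the 50 genes at -0.76.

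Unconventional myosins sat with the annotated genes in general, at a median log2 ratio of 0.28 over 11 genes past the minimum, 0.10 with TMM scaling. Of these 11 genes, 9 were higher in the black library (7 with TMM scaling, which put MYO5C and MYO6 below 0), and 7 had intervals wholly above 1. Over annotated genes 19.7% were lower in black skin (44.1% with TMM scaling) and 49.6% had intervals above 1, so these counts lie near the background. MYO3A, known from sensory hair cells and photoreceptors, was at 7.68 RPM in black and 5.66 RPM in yellow skin, a ratio of 1.36 (1.05 to 1.76). MYO9B was at 60.2 and 47.1 RPM, a ratio of 1.28 (1.17 to 1.40). MYO1D, MYO1F, MYO3B, MYO5B and MYO9A, motors of membranes and cargo among other roles, had ratios of 1.21 to 1.26, all with intervals wholly above 1. MYO6, which moves toward the minus end of actin filaments, was at 97.5 and 94.2 RPM, a ratio of 1.04 (0.968 to 1.11). MYO10, a motor of filopodia, stood apart from these at 70.2 and 85.8 RPM, a yellow-to-black ratio of 1.22 (1.14 to 1.32). MYO7A and MYO5C had intervals that include 1.

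The other members were mostly muscle enzymes and membrane proteins. MUSK, the receptor kinase that organises the neuromuscular junction, was at 4.86 RPM in black and 8.84 RPM in yellow skin, a yellow-to-black ratio of 1.82 (1.40 to 2.39). PYGM, the glycogen phosphorylase of muscle, was at 408 and 487 RPM, a ratio of 1.19 (1.16 to 1.23). PHKG1, the catalytic subunit of its activating kinase, was at 6.92 and 10.6 RPM, a ratio of 1.54 (1.22 to 1.94), although the protein-level match of 1 of its 2 unigenes was to an unrelated protein, SUMF2, and with a further unigene outside the word rule the ratio was 1.39 (1.19 to 1.63). These 3 were on the yellow side, while GYS1, the glycogen synthase of muscle, was at 85.4 and 83.5 RPM and KPB1, the regulatory subunit of phosphorylase kinase, at 58.8 and 55.7 RPM. CLCN1, the chloride channel that steadies the muscle membrane, was at 3.08 and 1.83 RPM, a black over yellow ratio of 1.69 (1.08 to 2.66), from 1 of its 5 annotated unigenes, while over all 5 it was at 5.68 and 5.63 RPM. ADIP, which binds alpha-actinin at cell junctions, was at 10.6 and 7.43 RPM, a ratio of 1.42 (1.14 to 1.78). HSH2D was at 39.4 and 35.2 RPM. The actin ACT2 was at 4.15 and 3.23 RPM, a black over yellow ratio of 1.28 (0.903 to 1.83). Its closest database protein is an alpha cardiac muscle actin, but the name lists did not place it among the sarcomere genes. The closest fish protein of HSH2D is described as a myosin-IIIb, but its leading domain is SH2 and its protein-level match is also HSH2D.

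Muscle genes outside the word rule leaned to the same side. Of 59 further names listed for muscle development, structure and metabolism, 10 were annotated and 9 passed the minimum. Of these, 7 were lower in black skin, with 5 intervals wholly below 1 and 1 wholly above, against 19.7%, 5.71% and 49.6% of annotated genes. These counts are without TMM scaling, with which 44.1% of annotated genes were lower in black skin. KCRS, a mitochondrial creatine kinase, was at 208 RPM in black and 297 RPM in yellow skin, a yellow-to-black ratio of 1.43 (1.37 to 1.49). Its 2 unigenes match different forms, S-type and U-type, so the sum cannot be read as that of a muscle form alone. ASB2, which marks muscle filamins for degradation, was at 14.2 and 29.2 RPM, a ratio of 2.06 (1.77 to 2.40). SMYD1, a methyltransferase needed for myosin assembly in zebrafish, was at 59.2 and 68.0 RPM, a ratio of 1.15 (1.06 to 1.25). FLNC, a muscle filamin of the Z-disc, was the one with an interval wholly above 1, at 8.62 and 4.02 RPM, a black over yellow ratio of 2.14 (1.62 to 2.86). This list was written with earlier results of these data known.

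Of 6 names that the words matched but the selection leaves out, 5 were on the black side. So were 2927 of 3644 annotated genes, and the count of 5 lies near this background. The exception was K6PF, a muscle phosphofructokinase, at 106 RPM in black and 141 RPM in yellow skin. MLRV, a regulatory light chain of ventricle and slow muscle, was at 64.3 RPM in black and 22.3 RPM in yellow skin. MYL4, an atrial and embryonic light chain, was at 34.0 and 13.5 RPM. AT2A1, by name the pump of fast muscle, was at 39.3 and 15.8 RPM. The closest database protein of its 1 unigene is calcium ATPase 3 (SERCA3), so a fast-muscle pump cannot be read from the AT2A1 name. Skeletal actin (ACTS) was at 594 and 455 RPM, a black over yellow ratio of 1.30 (1.27 to 1.34). With all left-out names that the words matched put back, the median log2 ratio of the sarcomere genes was -0.06 and 3 genes differed 2-fold. The summed level of the 24 sarcomere genes was 3671 RPM in black and 3807 RPM in yellow skin, a log2 ratio of -0.05, and its sign turned with these names put back, at 0.029, and with each gene's most abundant unigene alone, at 0.032.

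**Figure D5:**
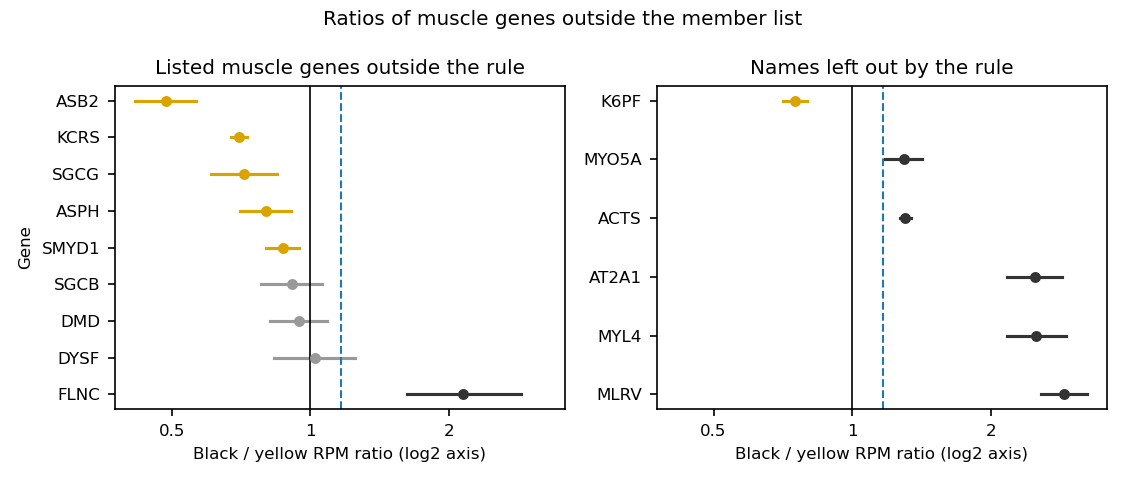
Black over yellow RPM ratio (x axis, log2 scale) of 9 muscle genes listed but outside the word rule (left) and of 6 names that the words matched but the selection leaves out (right); points are ratios and bars 95% counting intervals, yellow wholly below 1, dark grey wholly above 1, light grey including 1, and the dashed line marks the median ratio of annotated genes, 1.17. AT2A1, MYL4 and MLRV lie beyond 2 on the black side as does FLNC, and ASB2 lies beyond 0.5 on the yellow side.

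Markers of other cell types also differed between the libraries, where the median annotated gene had a black over yellow ratio of 1.17. The summed level of 4 annotated keratinocyte markers of 14 listed was 1262 RPM in black and 1026 RPM in yellow skin. Their ratio of 1.23 (1.21 to 1.25) was close to that median. The 11 annotated dermal fibroblast and scale markers of 13 summed to 1604 and 1076 RPM, mostly CO1A1 at 1214 and 780 RPM. Of the 8 past the minimum, 7 were higher in black skin and 3 had intervals that include 1. The 4 annotated immune cell markers of 7 summed to 145 and 86.2 RPM, and the 5 melanophore markers of 11 to 22.8 and 2.14 RPM. The sum over 12 annotated skeletal muscle markers of 26 listed, 10 of them members, was 1326 and 1488 RPM. Of these 12, 11 passed the minimum and 9 were lower in black skin (81.8%, without TMM scaling). The background was 19.7% of annotated genes, or 44.1% with TMM scaling. As most of the 12 are members, the count of 9 largely repeats that of the sarcomere genes. AT2A1, with the match named above, is also among the 12. Of the cardiac markers 3 of 11 and of the smooth muscle markers 4 of 10 were annotated. The cardiac sum was 17.3 and 21.4 RPM, and the black over yellow ratio of the smooth muscle sum was 0.972 (0.902 to 1.05). The 4 annotated blood cell markers of 8 listed summed to 77.6 and 63.9 RPM. Most of that was TFR1, a transferrin receptor, at 68.1 and 50.4 RPM, and 2 of the 3 blood markers past the minimum were lower in black skin. Troponins, desmin, muscle creatine kinase and haemoglobins among the listed markers were not analysed here. In tissue RNA, fewer cells of a type and less RNA per cell cannot be told apart, and the part of these differences in the values of the members was not tested.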

How the data were processed

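RNA of black and of yellow skin was sequenced with 1 library per colour. Trizol extraction and a standard Illumina preparation are stated per the labels' protocols. GRCz11, a zebrafish build, is listed without a role in the submitters' processing notes. Sources used here name no assembler, aligner or counter. The authors deposited a normalised signal per unigene, read here from the values as RPM. Of 128781 lines per file, 4131 were repeats with equal values, which were dropped. Entries of the deposited annotation are other than measurements and gave names, reading frames and domains; they cover 4.55% of unigenes and the last record breaks off, so the table may be a part of a longer one. No sequence of these unigenes was used.

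Whole reads were recovered from the value steps, 0.0282 RPM per read for black and 0.0261 RPM for yellow skin. Unigenes with 0 reads carry 0.5 of a read's value. Within 0.1 read, 100% of black and 99.9992% of yellow values were whole. The limit at 0 reads was set at 3 reads (0.0847 RPM black, 0.0782 RPM yellow). With 1 library per colour a count test across samples has no residual degrees of freedom, so none was made. Intervals of RPM ratios are Clopper-Pearson at 95%, conditional on the summed read pairs. In the black library 8897 unigenes had 2 reads, 6459 had 1 and 7299 had 3, and the excess at the even number led to treating 2 reads as 1 pair; intervals and the limit above cover counting error only.

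Members and lists were chosen with earlier results of these data known. Named genes were the sarcomere genes past the minimum of 1 RPM, the 5 most abundant other members and the 5 highest and 5 lowest log2 ratios among members averaging 5 RPM or more (33 genes), and the 3 most abundant unigenes. MYH6, MYH10, MYH11, CLCN1, KPB1, the other unigenes described singly and the genes outside the rule were chosen after their values were seen. Pseudocount was 1, and no further scaling was applied. Alternatives tried were scaling by TMM or median of ratios, totals without the 100 most abundant unigenes, pseudocounts of 0.1 and 5, no minimum or 5 RPM, a 4-fold rule, an interval rule, and other ways of naming and joining unigenes. Sums over every unigene of a name and the count of opposite unigenes over annotated genes were added after seeing the data. The interval and call were tested on simulated data. Python 3.11.15, scipy 1.17.1, pandas 2.3.3, matplotlib 3.10.9, R 4.3.3 and edgeR 4.0.16 (TMM factors) were used. Some single members are not reported here and are kept in the counts.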

Additional observations from a re-analysis of the deposited data

How the results depend on the processing

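Putting back left-out names, leaving out MYPC2 or forms known outside striated muscle, and all alternatives for single unigenes were chosen after seeing the data. The median log2 ratio of all 50 member genes, 0.01, was -0.17 with TMM, -0.13 with median-of-ratios and -0.17 without the 100 most abundant unigenes; that of the sarcomere genes was -0.28, -0.24 and -0.25, that of the other myosins -0.088, -0.047 and -0.10, and the log2 ratio of the sarcomere sum -0.24, -0.20 and -0.24. The annotated median moved with them, to 0.03, 0.07 and 0.04. Leaving out the 100 most abundant unigenes also drops member unigenes such as the main one of MYH9 and brings 52 member genes past the minimum. The sarcomere sum was 0.032 with the most abundant unigene, 0.029 with left-out names put back, -0.10 without forms known outside striated muscle and -0.031 without MYPC2. Calls at 1.5-fold (4) were 9, 8 and 11 under the 3 scalings, 7 with a pseudocount of 0.1, 0 with 5, 7 with the most abundant unigene, 7 with left-out names put back and 0 by the interval rule. Calls at 2-fold (0) were 2 with protein-level names and 3 with left-out names put back. Unigenes at 2-fold (7) were 2 with a pseudocount of 5, 4 at a minimum of 5 RPM and 11 with left-out names put back. Of 363 values of named genes under alternatives, 300 moved by less than their counting interval. Part of that count was fixed in advance, since a change of the minimum cannot move the value of a single gene. Signs turned for GYS1, MYO6 and TPM4 with TMM or without the 100 most abundant unigenes, GYS1 and MYO6 with median-of-ratios, MYH7, MYPC2, NEBU and SPEG with the most abundant unigene, and MYPC2 and RYR2 with protein-level names. No paired analysis was possible because each colour has 1 library. The cause of the scaling difference was not tested.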
